A study of Mus musculus with 16 samples.

Results

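The 7 cholesterol synthesis enzymes Hmgcs1, Idi1, Fdps, Sqle, Lss, Cyp51 and Hsd17b7 were followed through myofibers of old and young mice that had or had not run on wheels. They were chosen by symbol and are 7 of the 23220 gene symbols in the deposited tables, where each has a row. The set was put together because Hsd17b7 had moved in opposite directions with running at the 2 ages. The values of Hsd17b7 with and without running therefore chose the set, and every difference between runners and controls is given as a description. The RNA was from myofibers (muscle fibres, which hold many nuclei) taken from the extensor digitorum longus, a hindlimb muscle of mostly fast fibres. The 16 libraries formed 4 groups of 4, all from male C57BL/6 mice with no genetic change or drug named in the labels. Old runners were 22 months old and had wheels for 5 weeks that they used at will, and old controls were 22 months old without wheel running. Young runners were 4 months old with the same 5 weeks of wheels, and young controls were 4 months old without wheel running. The labels do not say whether libraries of a group came from separate mice, so p-values measure the spread between libraries.

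Cholesterol is built from acetyl-CoA through mevalonate, isoprenoid diphosphates, squalene and lanosterol. The transcription factor SREBP2, held in the endoplasmic reticulum by INSIG proteins when sterols are plentiful, switches most genes of this route together when sterols run short. Muscle fibres use cholesterol in the sarcolemma and transverse tubules, and use the isoprenoid side branches for ubiquinone, dolichol and prenylated proteins. Statins, which block the route near its start, can injure muscle.

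The 16 libraries held 30.7 M to 67.4 M reads (median 46.9 M), with reads in 12692 to 17563 genes. The 6 myofiber markers summed to between 4.65 M and 9.05 M normalised reads per library, and none was at 0 in any group. Normalised reads are read counts, recovered from the deposited values and scaled to a depth common to all 16 libraries. The libraries Oc1 (an old control) and Y3ex (a young runner) had the fewest genes with reads, 12692 and 12696. In pooled fibres, fewer fibres that make an RNA and less of that RNA per fibre cannot be told apart.

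Per kilobase of exon, the 7 enzymes spanned a wide range of levels. Hmgcs1, the synthase that makes HMG-CoA, was the highest, with a median of 250 normalised reads per kilobase (lowest 160, highest 356 of 16 libraries). Hsd17b7, a sterol keto-reductase that acts late in the route and also converts estrone to estradiol, had a median of 127 (11.5 to 240). Cyp51, which removes a methyl group from lanosterol, had a median of 77.7 (24.2 to 173). Idi1, which interconverts the isoprenoid building blocks, had a median of 58.9 (22.5 to 71.6). These 4 lay at percentiles 68.8, 57.3, 48.9 and 44.7 of the 13982 genes whose exon length was known and that passed a minimum of 10 reads in 4 libraries. The ranges of Hmgcs1 and Hsd17b7 overlapped, and that of Idi1 lay mostly inside that of Cyp51. Sqle, the squalene epoxidase, had a median of 8.61 normalised reads per kilobase (0 to 27.5). Lss, which closes the ring to lanosterol, had a median of 4.28 (0 to 10.2), and Fdps, the farnesyl diphosphate synthase, a median of 1.52 (0.21 to 6.90). These 3 lay at percentiles 19.9, 14.2 and 8.95, so their values rest on few reads: at most 189 for Sqle, 157 for Lss and 30 for Fdps in any library.

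**Figure D1:**
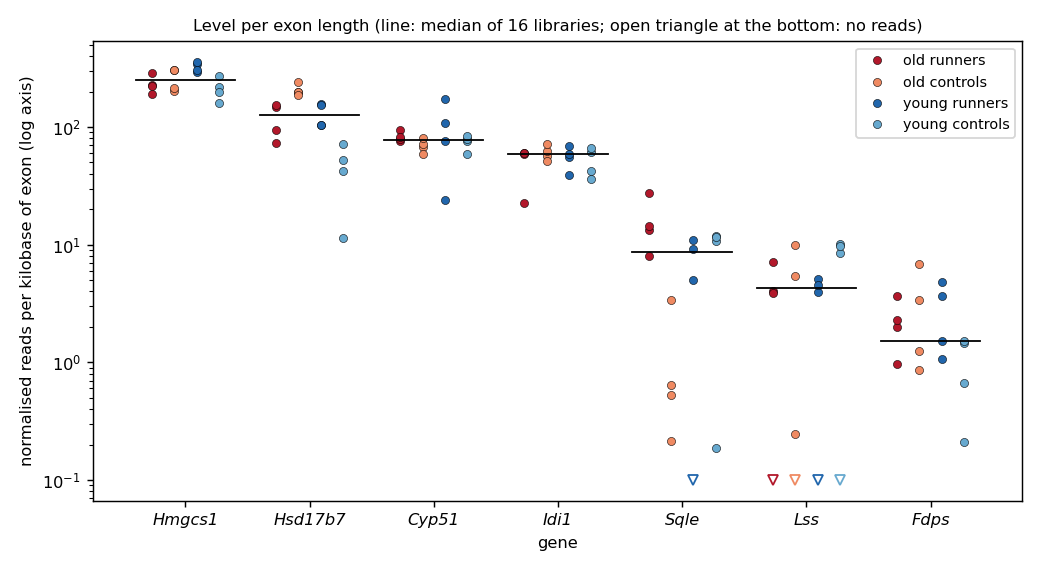
Normalised reads per kilobase of exon (log axis) of the 7 enzymes in each of 16 libraries, coloured by group, with a line at the median of the 16; open triangles at the bottom mark libraries without reads. Hmgcs1 (median 250) and Hsd17b7 (median 127) lie far above Sqle, Lss and Fdps (medians 8.61, 4.28 and 1.52), and Lss has no reads in 1 library of each group.

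The 2 enzymes whose 4 young runner libraries all lay above the 4 young controls were Hmgcs1 and Hsd17b7, and the 250 bases before their RefSeq start sites (GRCm38.p6) are shown for that reason. The Hmgcs1 stretch is chr13:119690101-119690350 on the plus strand, and that of Hsd17b7 is chr1:169969206-169969455, read from the minus strand. Capitals mark the sterol regulatory element searched as TCACNCCAC, which SREBP proteins bind, and CCAAT boxes, bound by NF-Y, here as CCAAT or its reverse complement ATTGG.
Hmgcs1: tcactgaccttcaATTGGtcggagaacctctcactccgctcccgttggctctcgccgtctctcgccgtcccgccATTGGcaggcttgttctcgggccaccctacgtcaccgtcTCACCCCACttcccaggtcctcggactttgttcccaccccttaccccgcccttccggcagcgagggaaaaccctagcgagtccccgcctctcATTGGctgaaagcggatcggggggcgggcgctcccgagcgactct
Hsd17b7: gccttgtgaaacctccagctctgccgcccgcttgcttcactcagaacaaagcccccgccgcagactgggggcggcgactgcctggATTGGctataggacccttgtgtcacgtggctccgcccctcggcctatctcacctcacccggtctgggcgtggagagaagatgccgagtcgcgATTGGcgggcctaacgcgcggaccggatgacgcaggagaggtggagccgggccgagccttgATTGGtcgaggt

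Both strands were searched, and no match overlapped another. The Hmgcs1 stretch held 1 sterol regulatory element, at positions -137 to -129 counted back from the start site, and 3 CCAAT boxes. The Hsd17b7 stretch held 3 CCAAT boxes and no match to TCACNCCAC, which says only that those letters are not in this window. Hsd17b7 also had 1 E-box of the letters CACGTG, at -143 to -138, and 3 GC boxes (GGGCGG), while Hmgcs1 had 2 GC boxes and no CACGTG. Promoters were at hand for 5 of the 7 enzymes. Idi1 held 2 CCAAT boxes, Cyp51 and Lss held 1 each, and none of these 3 held TCACNCCAC. A CCAAT box was thus in 5 of 5 promoters, against 33.8% of 32851 promoters of the same length, while TCACNCCAC was in 1 of 5, against 1.05%. CACGTG was in 6.02% and GGGCGG in 32.7% of all promoters. A match of letters is not evidence that a factor binds there.

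At the mevalonate end of the route, Hmgcs1 (mm10, chromosome 13, 119690379 to 119708260, plus strand) stood out in young runners. It had 1360, 1568, 1634 and 1412 normalised reads in young runners, against 1015, 921, 737 and 1256 in young controls. In old runners it had 873, 1045, 1317 and 1035 normalised reads, against 1405, 1409, 924 and 982 in old controls. Every young runner lay above every young control, and also above every old runner, while old runners and old controls overlapped. The group means were 1067 ± 184 in old runners, 1180 ± 263 in old controls, 1494 ± 129 in young runners and 982 ± 216 normalised reads in young controls (SD, n = 4 each). On the deposited log2 scale the difference of runners minus controls was 0.53 (SE 0.18) in young mice and -0.10 (SE 0.16) in old mice. Exons of Hmgcs1 overlap Gm48342, an antisense gene, and 13.6% of its 50-base words also occur there. The library kits keep no strand, so reads of the pair cannot be told apart.

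Summed markers of 3 other cell types were also higher in the same young runners. The 8 markers of fibro-adipogenic progenitors summed to 6826 to 14874 normalised reads in young runners, against 1338 to 2496 in young controls, without overlap. The 6 endothelial markers summed to 949 to 4335 in young runners, against 171 to 823 in young controls. The 5 markers of smooth muscle and pericytes summed to 582 to 2745 in young runners, against 34.3 to 397 in young controls. No marker of these 3 lists was at 0 throughout either young group. At the old age all 3 sums overlapped between runners and controls, with 3371 to 5926 normalised reads of fibro-adipogenic markers in old runners and 890 to 3710 in old controls. Pdgfra, a defining fibro-adipogenic marker, was at 0 in every library of both old groups, and Myh11 of smooth muscle in every old control. The sums for satellite cells, macrophages, Schwann cells, tenocytes and erythroid cells overlapped between runners and controls at both ages, and adipocyte markers summed to at most 15.9. The part of these cells in the values of Hmgcs1 and Hsd17b7 was not tested.

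Idi1 (chromosome 13, 8885501 to 8892451, plus strand) was nearly flat. It had 78.8, 210, 206 and 209 normalised reads in old runners, against 200, 181, 221 and 251 in old controls. In young runners it had 137, 197, 207 and 241 normalised reads, against 216, 149, 231 and 127 in young controls. All 4 groups overlapped, and a single low old runner, O1ex, set the lowest value. The differences of runners minus controls were -0.14 (SE 0.17) in old and 0.07 (SE 0.21) in young mice. Of its 50-base words, 30.5% also occur in 5 other genes, Gm48574 on the opposite strand among them.

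Fdps (chromosome 3, 89093588 to 89101959, minus strand) was close to the detection limit. Its normalised reads were 8.38, 15.3, 9.67 and 4.09 in old runners, against 29.1, 5.28, 3.60 and 14.2 in old controls. Young runners had 6.35, 4.47, 20.2 and 15.3 normalised reads, against 6.16, 0.88, 2.80 and 6.42 in young controls. All groups overlapped. Fdps also shares 86.4% of its 50-base words with 8 other genes, among them Gm43738, which lies on the same strand over its exons, and Gm3571 and Gm5873. Reads that could not be placed may have been dropped or split by the authors' counting, so the level of Fdps is uncertain. Gm3571 averaged 6.01 to 11.4 and Gm5873 3.05 to 4.65 normalised reads in the 4 groups.

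The squalene steps were low and patchy. Sqle (chromosome 15, 59315077 to 59331192, plus strand) catalyses the first oxygen-dependent step and is a control point of the route. It had 73.7, 44.5, 152 and 79.7 normalised reads in old runners, against 2.91, 3.52, 1.20 and 18.6 in old controls, so the old groups did not overlap. The ratio of the old means was 13.3, but the limma test left Sqle out because too few libraries passed the filter on low values. In young runners it had 27.9, 51.0, 0 and 61.2 normalised reads, against 1.03, 60.2, 65.9 and 65.0 in young controls. The young groups overlapped, and each held a library at or near 0, Y3ex and Yc4. No 50-base word of Sqle occurs in another gene.

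Lss (chromosome 10, 76531588 to 76557138, plus strand) had 77.1, 0, 43.5 and 41.9 normalised reads in old runners, against 0, 2.64, 58.7 and 106 in old controls. In young runners it had 54.6, 42.9, 0 and 48.7 normalised reads, against 0, 92.0, 110 and 106 in young controls. Each group thus held a library without a read of Lss. Apart from Yc4, the young controls lay above all young runners. The limma difference of young runners minus young controls, with Yc4 included, was -0.31 (SE 0.37). The antisense gene 4930483K19Rik overlaps exons of Lss and shares 4.35% of its 50-base words.

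The number of detected genes is given beside these values. The 5 libraries with under 10 reads of Sqle (Oc1, Oc2, Oc3, Y3ex and Yc4) had reads in 12692 to 15085 genes, against 14239 to 17563 genes in the other libraries. The 5 libraries with under 10 reads of Lss (O2ex, Oc1, Oc2, Y3ex and Yc4) had reads in 12692 to 14763 genes, against 14239 to 17563 in the rest. The ranges overlapped. Oc3, with 1 read of Sqle, had reads in 15085 genes, and O2ex, with no read of Lss, in 14763, both above O1ex with 14239, which had 44 reads of Sqle and 46 of Lss. Of the libraries low in Sqle, Oc1, Oc2 and Oc3 are old controls. The part of detection in the values of both enzymes was not tested.

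Cyp51 (chromosome 5, 4081145 to 4104746, minus strand) varied little outside the young runners. It had 337, 414, 350 and 361 normalised reads in old runners, against 299, 320, 355 and 263 in old controls. It had 482, 763, 107 and 335 normalised reads in young runners, against 339, 348, 369 and 262 in young controls. Young runners held both the highest and the lowest of the 16 values, Y2ex and Y3ex, and gave an SD of 275, against 33.7 to 46.9 in the other groups. Runners minus controls was 0.13 (SE 0.14) in old and 0.10 (SE 0.33) in young mice. Akap9 overlaps exons of Cyp51 on the opposite strand. Akap9 averaged 1943 ± 293 in old runners, 2063 ± 160 in old controls, 1666 ± 346 in young runners and 2891 ± 1346 normalised reads in young controls (SD, n = 4 each).

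Hsd17b7 (chromosome 1, 169949535 to 169969241, minus strand) was the only enzyme of the 7 whose runners and controls were apart at both ages. It had 478, 374, 763 and 785 normalised reads in old runners, against 1225, 1023, 1015 and 959 in old controls. It had 535, 531, 796 and 793 normalised reads in young runners, against 58.5, 217, 367 and 268 in young controls. All old runners lay below all old controls, and all young runners lay above all young controls. The means were 599.8 ± 205 in old runners, 1056 ± 117 in old controls, 664 ± 151 in young runners and 227 ± 129 normalised reads in young controls (SD, n = 4 each). From high to low the order was old controls, young runners, old runners and young controls. Young and old runners overlapped over most of their range, whereas the lowest old runner (374) was only just above the highest young control (367). No other gene overlaps Hsd17b7, and none of its 50-base words occurs elsewhere.

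**Figure D2:**
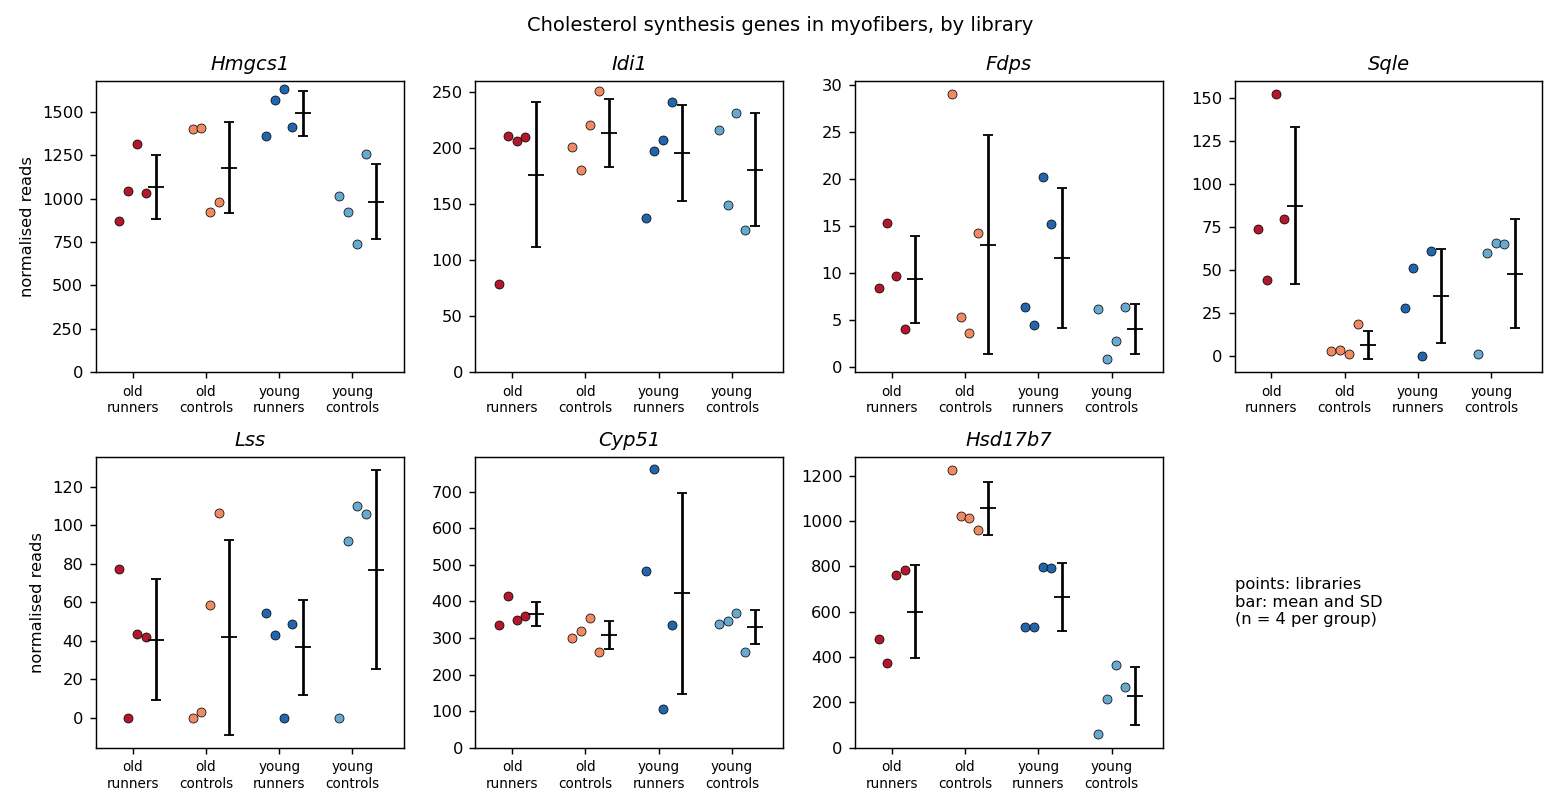
Normalised reads (linear axes, 1 panel per enzyme) in each library of old runners, old controls, young runners and young controls; points are libraries, and the bar gives the mean and SD of 4. Hsd17b7 is highest in old controls (1056 ± 117) and lowest in young controls (227 ± 129), with both runner groups between, and in Hmgcs1 the young runners (1360 to 1634) lie above the young controls (737 to 1256).

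For Hsd17b7, runners minus controls on the deposited log2 scale was -0.59 (SE 0.18) in old mice and 1.15 (SE 0.29) in young mice. These are the values that chose the set. In a voom fit of all 16 libraries, the running difference in old mice minus that in young mice was -2.54 (SE 0.53) on the log2 scale of reads. On the same scale it was -0.76 (SE 0.28) for Hmgcs1, -0.35 (SE 0.49) for Idi1, -1.62 (SE 1.30) for Fdps and 0.16 (SE 0.59) for Cyp51. For Sqle it was 4.92 (SE 2.08), opposite in sign to Hsd17b7, and for Lss 1.39 (SE 3.28).

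Counts over the set are given for running as a description. They hold Hsd17b7, whose running values chose the set, so nothing is read from them. Of the 7 enzymes, 4 could be tested in old mice (Hmgcs1, Idi1, Cyp51 and Hsd17b7), and limma called 0 of them at an adjusted p under 0.05, with 1 at an unadjusted p under 0.05. Of all 9379 genes tested there, 0.128% were called, 17.4% had an unadjusted p under 0.05 and 10.2% had groups without overlap in either direction, as had 1 of the 4, Hsd17b7. In young mice 6 of the 7 could be tested (all but Fdps), with 0 called and 2 at an unadjusted p under 0.05. There 0.762% of 10624 genes were called, 17.4% had an unadjusted p under 0.05 and 11.5% had groups without overlap, as had 2 of the 6, Hsd17b7 and Hmgcs1. The median difference of the tested enzymes was -0.12 in old mice, against 0.03 over all genes tested, and 0.08 in young mice, against 0.01 over all. Voom on the recovered reads also called 0 enzymes at either age.

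**Figure D3:**
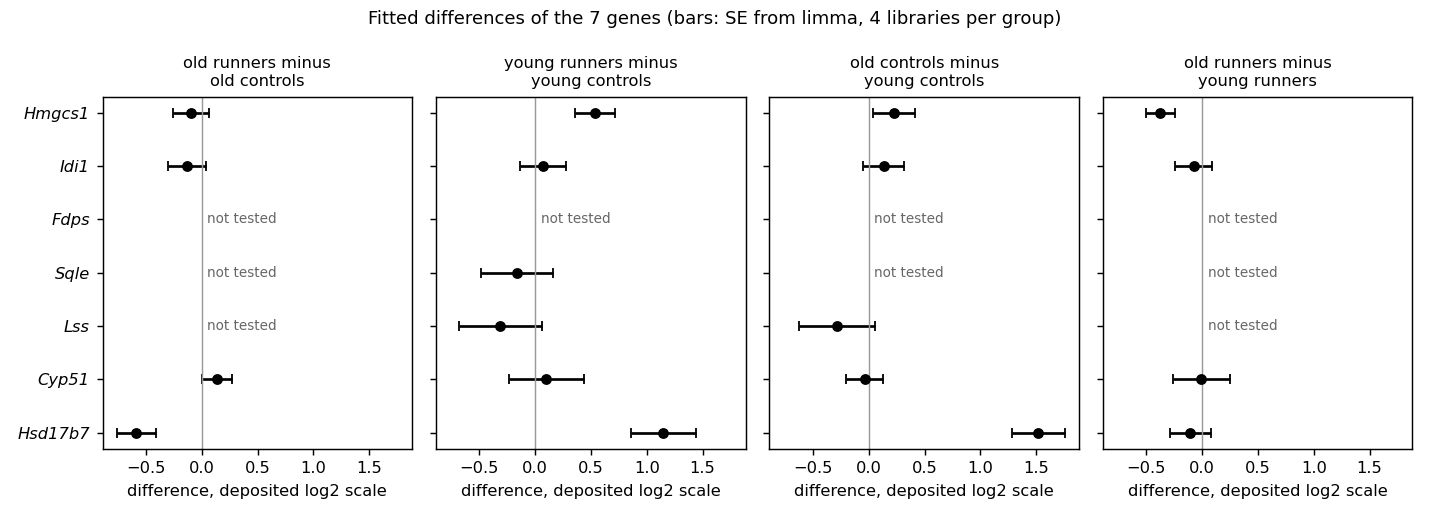
Differences on the deposited log2 scale with their SE from limma (4 libraries per group), 1 panel per pair of groups; enzymes that failed the filter on low values are marked as not tested. Hsd17b7 lies at -0.59 and 1.15 for running in old and young mice and at 1.52 for age in controls, while Idi1 and Cyp51 stay within 0.14 of 0 in every panel.

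Age was tested in 3 ways. Averaged over running, the estimate of old minus young does not depend on the running differences in a balanced fit without weights. It is therefore the comparison least tied to the choice of the set. Its SE rests on the same spread within groups as the running differences, so its p and rank are not fully free of the choice. All 7 enzymes entered this fit of 16 libraries, and voom with limma called 0 of them, with 1 at an unadjusted p under 0.05; over all 14356 genes tested, 0.411% were called and 10.6% had an unadjusted p under 0.05. Hsd17b7 had the largest difference in absolute value, 1.07 (SE 0.26), with an adjusted p of 0.12 from voom and limma. The adjusted p lay between 0.0669 and 0.249 over the alternatives. With the 2 age tables fitted together on the deposited log2 scale, with a term for the table, the difference was 0.71 (SE 0.24) and the adjusted p 0.243. By p it ranked 108 of 14356. Hmgcs1 differed by -0.09 (SE 0.14), Idi1 by 0.07 (SE 0.24) and Cyp51 by -0.01 (SE 0.29). The low enzymes had wide errors, with 0.65 (SE 0.65) for Fdps, -0.11 (SE 1.04) for Sqle and -1.04 (SE 1.64) for Lss. The median of the 7 was -0.01, against -0.03 over all genes, and 3 of the 7 were above 0.

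Among controls, old minus young was 1.52 (SE 0.24) for Hsd17b7 on the deposited log2 scale, and the ratio of the means was 4.64. All 4 old controls (959 to 1225 normalised reads) lay above all 4 young controls (58.5 to 367). The adjusted p of limma was 0.0514, just over the threshold, and Hsd17b7 ranked 12 of 9831 genes by p, next after the 11 called. These libraries also entered the running differences that chose Hsd17b7, so this is not independent of the choice. Without the young control Yc4, the lowest of all 16 in Hsd17b7, the difference was 1.29 and the adjusted p 0.0145. Over all alternatives the adjusted p lay between 0.0134 and 0.194. Of the 7 enzymes, 5 were tested and 0 called, against 0.112% of all genes, with 1 at an unadjusted p under 0.05, against 11.2% of all genes. Hsd17b7 alone had groups without overlap, against 7.0% of all genes. The other tested enzymes differed by 0.23 (SE 0.19) for Hmgcs1, 0.13 (SE 0.18) for Idi1, -0.29 (SE 0.34) for Lss and -0.04 (SE 0.17) for Cyp51. Sqle was not tested and averaged 6.56 ± 8.10 in old controls and 48.0 ± 31.4 normalised reads in young controls (SD, n = 4 each), with overlap through Yc4.

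Among runners the 2 ages lay close for most enzymes. Hsd17b7 differed by -0.11 (SE 0.19), with old runners at 374 to 785 and young runners at 531 to 796 normalised reads. Both runner groups also entered the running differences that chose Hsd17b7, so this difference is not independent of the choice. Hmgcs1 was the only tested enzyme whose groups did not overlap, at 873 to 1317 normalised reads in old runners and 1360 to 1634 in young runners. Its difference was -0.38 (SE 0.13), with an adjusted p of 0.96 from limma. The summed fibro-adipogenic markers did not overlap between these groups either (3371 to 5926 normalised reads in old runners, 6826 to 14874 in young runners), and their part in the value of Hmgcs1 was not tested. Of the 7 enzymes, 4 were tested and 0 called, against 0.0213% of all 9387 genes. In 3.38% of all genes the groups did not overlap. Of the 4, 1 had an unadjusted p under 0.05, against 4.91% of all genes. Idi1 differed by -0.08 (SE 0.17) and Cyp51 by -0.01 (SE 0.25). The median of the 4 was -0.09, against 0.00 over all genes.

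The rest of the route was followed in a list of 15 further enzymes, 14 of which are in the tables. Limma called 0 of the 13 tested with running at either age, 0 of 13 with age in controls, 0 of 13 with age in runners and 0 of 14 with age averaged over running. Of all genes, 0.128% were called with running in old, 0.762% with running in young and 0.112% with age in controls. With age in runners 0.0213% of all genes were called, and with age averaged over running 0.411%. At an unadjusted p under 0.05, 1 of 13 was higher with running in old (10.3% of all genes) and in young (8.85%). With age in controls 1 of 13 was higher (5.43% of all genes), and no other enzyme of the list reached it in any comparison. Averaged over running, 11 of the 14 were above 0, with a median of 0.21, against -0.03 over all genes. Mvd, which makes isopentenyl diphosphate from mevalonate diphosphate, came nearest in controls. It averaged 409 ± 84.6 in old controls and 222 ± 97.5 normalised reads in young controls (SD, n = 4 each), a difference of 0.54 (SE 0.22) with an adjusted limma p of 0.40. Sc5d, a desaturase of the last steps, averaged 1910 ± 163 in old controls and 2545 ± 519 normalised reads in young controls, with a difference of -0.33 (SE 0.17). Lbr, a sterol reductase that also anchors the nuclear lamina, averaged 3054 ± 181 in old runners and 2684 ± 535 normalised reads in young runners, with a difference of 0.19 (SE 0.15). Lbr was also the enzyme with an unadjusted limma p under 0.05 with running at either age. It averaged 2176 ± 439 in old controls and 1739 ± 397 in young controls. Runners minus controls was 0.45 (SE 0.14) in old and 0.57 (SE 0.21) in young mice, uncalled.

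Among 11 regulators of sterol synthesis, Insig1 was highest in young controls and was called lower with age averaged over running. Insig1, which retains SREBP in the endoplasmic reticulum and is itself an SREBP target, averaged 532 ± 89.1 in old runners, 485 ± 96.1 in old controls, 706 ± 182 in young runners and 1244 ± 203 normalised reads in young controls (SD, n = 4 each). Young controls stood alone at 957 to 1419, above every other library, while the old groups spanned 402 to 653 and young runners 480 to 924. Averaged over running, the difference of old minus young was -0.89 (SE 0.17), with an adjusted p of 0.0287 from voom and limma. Leaving out single libraries and the other alternatives gave adjusted p-values of 0.0164 to 0.0883, past the threshold in 10 of 21. The call was lost without any of O1ex, O2ex, O3ex, Oc2, Oc4, Y1ex, Y2ex, Yc5 or Yc7. It was also lost with the 2 age tables fitted together (difference -0.61, adjusted p 0.0645) and without Oc1 and Y3ex together (adjusted p 0.054). In controls it was -0.98 (SE 0.17, adjusted limma p 0.0701) and in runners -0.25 (SE 0.16, adjusted limma p 0.99). Runners minus controls was 0.09 (SE 0.15) in old and -0.70 (SE 0.20) in young mice, uncalled.

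The SREBP genes themselves were not called in any comparison. Srebf2, which encodes SREBP2, averaged 385 ± 87.6 in old runners, 305 ± 60.9 in old controls, 503 ± 66.5 in young runners and 429 ± 159 normalised reads in young controls (SD, n = 4 each). Its age difference averaged over running was -0.41 (SE 0.21, adjusted p 0.51 from voom and limma), and it was -0.25 (SE 0.21) in controls and -0.23 (SE 0.14) in runners. Srebf1, whose product drives fatty acid genes, averaged 2859 ± 617 in old runners, 2307 ± 575 in old controls, 4179 ± 1360 in young runners and 2434 ± 205 normalised reads in young controls (SD, n = 4 each). Its age difference averaged over running was -0.33 (SE 0.18). With running it differed by 0.28 (SE 0.18) in old and 0.67 (SE 0.24) in young mice. Nr1h3, the sterol-sensing receptor LXR alpha, averaged 999 ± 220 in old runners, 1098 ± 221 in old controls, 756 ± 276 in young runners and 777 ± 317 normalised reads in young controls, a difference with age of 0.51 (SE 0.20, adjusted p 0.38 from voom and limma). Apart from Insig1, 0 of the 10 or 11 regulators tested were called in any of the 5 comparisons. Insig1 was thus 1 of 11 called with age averaged over running, against 0.411% of all genes.

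**Figure D4:**
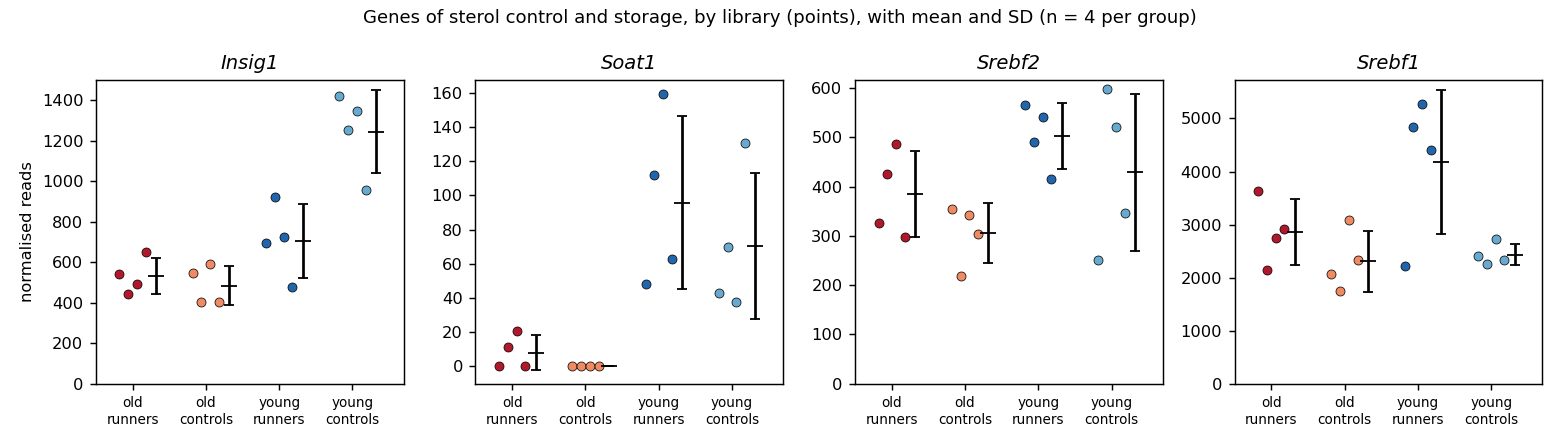
Normalised reads (linear axes) of Insig1, Soat1, Srebf2 and Srebf1 in each library of the 4 groups, with the mean and SD of 4. Insig1 in young controls (957 to 1419) lies above all other libraries, and Soat1 has no reads in the 4 old controls and 37.8 to 160 normalised reads in the 8 young libraries.

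Of 10 genes of sterol uptake, transport and efflux, 1 was called with age averaged over running, against 0.411% of all genes. In the 4 single comparisons, where 6 to 8 were tested, 0 were called. The called gene was Soat1, which esterifies cholesterol for storage, and it is named after its values were seen. Soat1 had 0 to 20.9 normalised reads in old runners and no read in the 4 old controls, against 48.2 to 160 in young runners and 37.8 to 131 in young controls. Old and young did not overlap. Soat1 entered the fit only through the young libraries, where it is high, so its call supports nothing by itself. Some markers of other cells were also without reads in all 8 old libraries. Pdgfra had 0 to 107 normalised reads in young runners and 0 to 24.9 in young controls. The macrophage marker Csf1r had 0 to 92.7 in young runners and 0 to 15.4 in young controls, and C1qa had 0 to 16.5 in young runners and 0 to 3.54 in young controls. Ptprc of the same list went the other way, at 0 in every young library but not throughout either old group. Summed macrophage markers overlapped between the ages. They were 417 to 1347 in old runners and 920 to 2631 normalised reads in young runners. In controls they were 307 to 1098 (old) and 242 to 2196 (young). The sums of fibro-adipogenic markers were apart between the runners of the 2 ages and overlapped between old controls (890 to 3710) and young controls (1338 to 2496). The part of such cells in the value of Soat1 was not tested. In young mice, where Soat1 could be tested, runners minus controls was 0.18 (SE 0.25). In 9 genes of the isoprenoid branch limma called 0 in all 5 comparisons, against 0.0213% to 0.762% of all genes. At an unadjusted p under 0.05, 1 of these 9 was lower with running in old (7.04% of all genes) and 2 in young (8.51%). With age, 1 was higher in controls (5.43%) and 1 averaged over running (4.70%), and none differed in runners. In 10 genes of fatty acid synthesis limma also called 0, with 5 to 9 tested. At an unadjusted p under 0.05, 4 of 9 were lower with age averaged over running (5.87% of all genes). With running, 4 of 6 were higher in old (10.3%), and 2 of 6 were higher (8.85%) and 1 lower (8.51%) in young. With age, 1 of 5 was higher (5.43%) and 2 lower (5.75%) in controls, and 1 of 5 lower (2.50%) in runners. Fads1, at most 1.02 normalised reads in old runners and 0 in old controls, entered the age fit only through young libraries. Fasn (0 to 114) and Scd2 (2.64 to 128) were low in old controls, so the part of these genes in the counts supports nothing by itself. Me1 and Acacb, named after their values were seen, were not low, at 9564 ± 1468 and 4225 ± 2077 normalised reads in old controls. With running in old they differed by 0.68 (SE 0.14) and 0.79 (SE 0.34), with adjusted limma p of 0.089 and 0.26. With age averaged over running they differed by -0.34 (SE 0.11) and -0.15 (SE 0.36), uncalled.

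With predicted genes set aside, the genes whose pattern over the 16 libraries was most like that of Hsd17b7 came from outside the route. Likeness was measured by Pearson's r of log2 normalised reads plus 1 over 14356 genes, as a description, with no test, since the libraries share their group differences. Symbols of predicted genes and clones, such as Gm and Rik numbers, were then left out of the ranking of named genes. Elf3, an epithelial transcription factor, came first with r = 0.90 (Spearman's rho 0.78). It averaged 132 ± 54.3 in old runners, 310 ± 85.4 in old controls, 89.0 ± 17.3 in young runners and 28.4 ± 26.8 normalised reads in young controls. Kyat3, a kynurenine aminotransferase, followed with r = 0.88 (rho 0.75), and Fbxo22, a ubiquitin ligase subunit, with r = 0.87 (rho 0.77). Morn4 (r = 0.86, rho 0.65) and Mpzl3 (r = 0.86, rho 0.54) came next. All 5 were lowest on average in young controls, and Yc4, with the lowest Hsd17b7, had no read of Elf3. The other 6 enzymes were far from this pattern, with r between -0.14 for Cyp51 and 0.39 for Fdps.

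**Figure D5:**
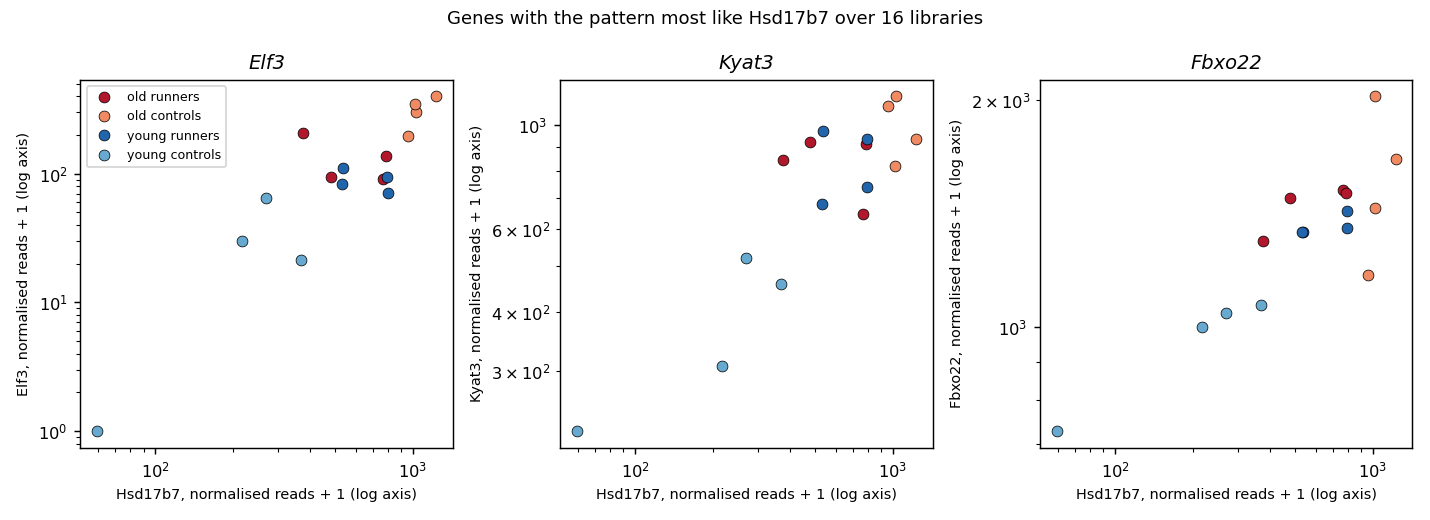
Normalised reads plus 1 of Elf3, Kyat3 and Fbxo22 against those of Hsd17b7 (log axes), 1 point per library, coloured by group. Young controls lie at the low end of all 3 panels and Yc4 is the lowest point, while old controls lie at the high end of Hsd17b7.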

How the data were processed

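RNA of 16 myofiber samples was sequenced after low-input amplification, per the labels' protocols. Per the submitters' processing notes, the authors used Trim Galore for trimming, STAR for alignment to mm10, featureCounts (Subread) for counting and DESeq2 for normalisation. Versions and annotation are not given in the sources used here. What was deposited are log2 values after a variance-stabilising transformation, applied by the authors separately in 4 tables of 1 pair of groups each. Genes with no read share the lowest value of a table, its floor, and low genes have their differences compressed. Undoing the transformation returned whole reads in 100% of values, to a tolerance of 0.02 (largest distance 0.0100), which gave the depths and the normalised reads (median-of-ratios size factors over 16 libraries). Reads carry no molecular identifiers, so copies made by PCR are counted, and the SD includes counting error.

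Pairs of groups were fitted within their table by limma 3.58.1 (R 4.3.3, variance trend, 2-sided), over genes that were 1 or more above the floor in 4 or more libraries. Age averaged over running, and the difference of running effects, used voom and limma on the recovered reads of 16 libraries (10 or more reads in 4 or more libraries). Adjusted p-values are Benjamini-Hochberg values across every gene in a fit, called under 0.05. The fits were tested on simulated data. Gene positions, exon lengths and shared 50-base words came from GENCODE M21 (22254 of 23220 symbols, 95.8%), promoters from RefSeq (GRCm38.p6). Python 3.11.15 read the tables and drew the plots.

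Control columns are numbered differently from the control titles, so 10 libraries were matched to a group only and 6 to a sample by title, and libraries carry the names of their columns. The members, lists and tests were chosen with earlier results of these data known. Besides the members, the text names per age comparison the 2 genes with the smallest p in each direction from the other sterol enzymes and the regulators, with Srebf1, Srebf2 and Insig1 throughout. It also names the 5 genes most like Hsd17b7 once predicted genes were left out. Alternatives were other filters, scalings, variance settings, voom on the reads, leaving out each library and, for runners, a replicate block. Leaving out together the libraries with reads in under 13000 genes was chosen after seeing the data.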

Additional observations from a re-analysis of the deposited data

Results flagged for a closer look

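In 28 sets of 4 libraries (7 enzymes in 4 groups), 4 held a library far from the other 3 by Dixon's test at the 95% level, where chance flags about 1 in 20. Among old runners, O1ex had 78.8 normalised reads of Idi1, against 206 to 210 in the other 3. Among old controls, Oc4 had 18.6 normalised reads of Sqle, against 1.20 to 3.52. Among young controls, Yc4 had 1.03 normalised reads of Sqle, against 60.2 to 65.9, and 0 of Lss, against 92.0 to 110. Yc4 was also the lowest library in Hsd17b7, with 58.5 normalised reads.

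The running difference of Hsd17b7 in old mice minus that in young mice was -2.54 on the log2 scale. Every old runner lay below every old control and every young runner above every young control. The difference chose the set of enzymes, so it is given as a description and no test is read from it.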

How the results depend on the processing

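The count of enzymes called stayed at 0 for age averaged over running, age in runners and running in old under every alternative run. For age in controls it was 1 (Hsd17b7) with a filter of 2 above the floor (adjusted limma p 0.0469), with median centring (0.0206) and with quantile normalisation (0.0134), and 0 to 1 when single libraries were left out, with the 1 without Yc4. For running in young it was 1 (Hsd17b7) with quantile normalisation. For the other enzymes, differences near 0 changed sign. Cyp51 was 0.0167 for age in controls with quantile normalisation, 0.0142 for age in runners with median centring and 0.0880 with voom on the reads. For age averaged over running Cyp51 was 0.000711 with total reads as library size and 0.00815 without voom weights. Leaving out single libraries moved Cyp51 between -0.0968 and 0.00724 for age in controls, between -0.27 and 0.21 for age in runners and between -0.26 and 0.22 for age averaged over running. It moved Idi1 between -0.144 and 0.0508 for age in runners and between -0.00839 and 0.170 for age averaged over running, Hsd17b7 between -0.205 and 0.0168 for age in runners, and Sqle between -0.91 and 0.23 for age averaged over running. The cause of these changes was not tested.

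Counts over all genes were less steady. They were 11 (3 to 52 over the alternatives) for age in controls, 2 (0 to 3) for age in runners and 59 (27 to 125) for age averaged over running. They were 12 (1 to 295) for running in old and 81 (0 to 228) for running in young, with 295 reached without Oc1 and 0 without Y2ex.

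Runner titles carry numbers at both ages. Correlations of the deviations of same-numbered runners from their group means were -0.24, 0.09, -0.40 and -0.04, so the numbers were not read as pairs. With the replicate block, 0 enzymes and 0 genes were called for age in runners, and Hsd17b7 differed by -0.11 (SE 0.15). Sqle, Lss and Fdps had at most 189 reads in any library, which limits the precision of their values. The deepest library, O2ex, had no read of Lss.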
